A study of Vitis vinifera with 204 samples.

Results

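The genes described here are 6 NAC transcription factors of ripening grape berries, taken by name and gene ID: NAC26 (VIT_01s0026g02710), NAC60 (VIT_08s0007g07670), NAC33 (VIT_19s0027g00230), NAC13 (VIT_02s0012g01040), NAC11 (VIT_14s0108g01070) and NAC61 (VIT_08s0007g07640). They are 6 of the 29971 gene IDs of the deposited table. All 6 passed a filter of at least 1 RPKM (read density per gene length and library size) in at least 3 libraries, which kept 20770 IDs. No library listed any of the 6 genes at 0, and the lowest value was 0.0547 RPKM. The deposited table holds IDs without gene names, so the names are those by which the genes were selected.

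RNA was sequenced from pericarp of Vitis vinifera cultivar Cabernet Sauvignon, grown near Modesto, California, as a grafted clone, on vines from which either 50% or 75% of the clusters had been removed after fruit set. Unthinned vines were not analysed here, so every sample carried a thinning treatment. Berries of 2012 were sampled at 12 time points, day -28 to day 80 counted from veraison, the softening and colouring that opens ripening. Those of 2013 were picked at 10 time points between day -20 and day 43, and those of 2014 at 12 between day -14 and day 63. Each season, time point and thinning intensity had 3 libraries, each from a pool of 60 berries from 6 clusters, and seeds were removed during grinding. Nothing says that the pools came from separate vines, so p-values measure the spread between pools. No ID could be paired with a marker gene, so the tissue label was not checked, and in whole pericarp a larger share of cells with a transcript and more of it per cell cannot be told apart.

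NAC proteins bind DNA through a shared domain at their amino end and activate or repress other genes through a variable tail. In tomato the NAC factor NOR is needed for ripening, and the grape factors are studied as candidates for the same switch. Grape NAC60 has been shown to act in the onset of ripening and to restore ripening in a tomato nor mutant, NAC33 to promote chlorophyll loss and the end of vegetative growth, and NAC61 to activate stilbene and other late-ripening genes. NAC26 has been linked to berry size. NAC11 and NAC13 are named among the genes that switch on between green and ripe berries. These roles are background and were not tested here.

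The genes fell into 3 kinds of course. NAC26 and NAC60 were already climbing in hard green berries, peaked close to veraison, sank, and were high again in the last berries of 2012 and 2014. NAC33 peaked at about veraison and then held a lower level, while NAC13 stepped up to a plateau. NAC11 and NAC61 climbed until harvest, NAC11 from before veraison and NAC61 mostly after it. Levels are compared between genes as RPKM, which is scaled to gene length.

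**Figure D1:**
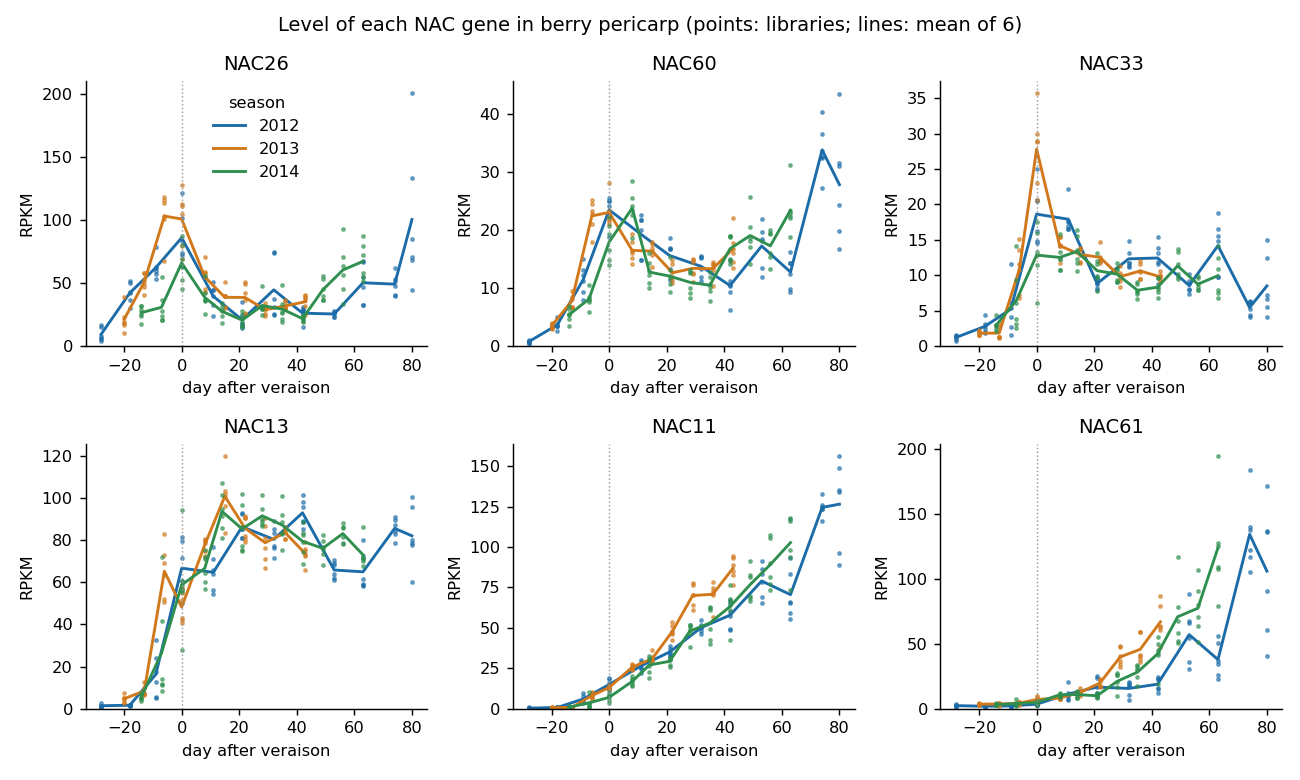
RPKM of each NAC gene against day after veraison, with a point for each library and a line through the mean of the 6 libraries of a time point (both thinning intensities) for each season. NAC26 and NAC60 peaked near day 0 and rose again late, NAC33 peaked near day 0, NAC13 reached a plateau, and NAC11 and NAC61 had their highest means in the last 2 time points of each season.

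Along with NAC60, NAC26 was among the first of the 6 to move where sampling began early. On day -28 of 2012 its libraries held 5.30, 16.6 and 6.38 RPKM in the 50% arm and 8.06, 4.24 and 15.2 RPKM in the 75% arm. On day -18 they held 50.2, 51.5 and 42.5 RPKM against 41.9, 36.3 and 30.4 RPKM. The days did not overlap, and the rise was 2.20 on the log2(RPKM + 1) scale (SE 0.23, limma adjusted p = 1.46e-15). The mean then reached 85.8 RPKM ± 21.6 (SD, n = 6) on day 0, a time when sugar stood at 7.57 g/100 ml. It was 103 RPKM ± 18.7 on day -6 of 2013 and 65.9 RPKM ± 16.0 on day 0 of 2014, the highest means of those seasons up to day 22.

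After veraison NAC26 came down. It fell by 1.10 on the log2 scale from day 0 to day 11 of 2012 (SE 0.23, limma adjusted p = 2.05e-05), the only 1 of the 6 genes to fall at least 2-fold over that interval, as 2.34% of all tested genes did. From day 0 to day 8 it was lower by 0.85 in 2013 (SE 0.23, limma adjusted p = 0.00151) and by 0.76 in 2014 (SE 0.23, limma adjusted p = 0.0027), both under 2-fold. Its lowest means after veraison were 20.8 RPKM ± 7.90 on day 21 of 2012, 28.8 RPKM ± 3.93 on day 29 of 2013 and 20.6 RPKM ± 5.09 on day 21 of 2014. The fall of 2012 was not even. On day 32 the mean was 44.6 RPKM ± 23.6, with 74.0 and 74.9 RPKM in replicate 1 of the 50% and 75% arms. On day 42 it was 26.0 RPKM ± 5.56.

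NAC60 rose over the same first interval of 2012, and it reached the middle of its rise a few days after NAC26 in 2012 and 2013. It was at 0.432 to 1.03 RPKM in the 6 libraries of day -28 of 2012 and at 2.61 to 5.07 RPKM on day -18, with no overlap. It went on to 11.5 RPKM ± 2.56 (SD, n = 6) on day -9 and 23.5 RPKM ± 2.56 on day 0. In 2013 it went from 3.49 RPKM ± 0.46 on day -20 to 22.4 RPKM ± 2.65 on day -6. In 2014, when sugar on day 0 was 3.04 g/100 ml against 7.57 in 2012 and 8.49 in 2013, it went from 5.38 RPKM ± 1.24 on day -14 to 17.9 RPKM ± 3.37 on day 0 and 23.8 RPKM ± 3.23 on day 8. The peak mean of NAC60 up to day 22 was thus between 23.0 and 23.8 RPKM in every season, though it was reached on day 0, day 0 and day 8.

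NAC33 stayed low in the green berries of 2013 and then rose in a narrow interval. Its climb of 2012 was spread over more of the green time points. Its mean in that season was 1.22 RPKM ± 0.34 (SD, n = 6) on day -28. It was 2.78 RPKM ± 0.95 on day -18 and 5.22 RPKM ± 3.53 on day -9. In 2013 its mean was 1.82 RPKM ± 0.29 (SD, n = 6) on day -20 and 1.84 RPKM ± 0.91 on day -13, then 10.8 RPKM ± 3.35 on day -6 and 27.8 RPKM ± 5.37 on day 0. The day 0 libraries held 20.6, 35.7 and 29.98 RPKM in the 50% arm and 23.0, 28.8 and 29.0 RPKM in the 75% arm, all above every library of day -6 and of day 8. The peak was lower in the other seasons, at 18.6 RPKM ± 4.09 on day 0 of 2012 and 13.4 RPKM ± 2.28 on day 14 of 2014.

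NAC13 made a large step before veraison. The 6 libraries of day -13 of 2013 held 6.46 to 12.7 RPKM, and those of day -6 held 50.6 to 82.8 RPKM, a rise of 2.82 on the log2 scale (SE 0.18, limma adjusted p = 2.69e-30). On day 0 of that season the mean was lower again, at 48.2 RPKM ± 7.19 (SD, n = 6) with a range of 40.7 to 57.1 RPKM, and on day 15 it was 101 RPKM ± 11.8. From day 14 on, all time point means of the 3 seasons lay between 65.0 and 101 RPKM. NAC13 was the most abundant of the 6 genes on the plateau until NAC11 or NAC61 passed it late in the season.

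NAC11 started lowest. On day -28 of 2012 its libraries held 0.0693 to 1.19 RPKM, with a median of 0.196 RPKM, and on day -9 they held 3.42 to 9.86 RPKM. Its mean was 15.0 RPKM ± 3.16 (SD, n = 6) on day 0, 35.1 RPKM ± 2.46 on day 21 and 127 RPKM ± 27.7 on day 80 of that season. In 2013 it was 13.2 RPKM ± 0.84 on day 0 and 86.9 RPKM ± 6.70 on day 43, and in 2014 it was 7.08 RPKM ± 2.28 on day 0 and 103 RPKM ± 17.9 on day 63.

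On the log2(RPKM + 1) scale NAC61 was not called at least 2-fold above its start up to day 0 in any season. This scale understates the fold of low values: the mean RPKM of 2013 was 3.58 on day -20 and 7.16 on day 0. Its time point means up to day 0 lay between 1.98 and 3.53 RPKM in 2012, between 3.58 and 7.16 RPKM in 2013 and between 3.28 and 4.87 RPKM in 2014. In 2013 its 6 libraries held 2.97 to 4.41 RPKM on day -20 and 5.85 to 9.71 RPKM on day 0, with no overlap, a difference of 0.82 on the log2(RPKM + 1) scale (SE 0.22, limma adjusted p = 0.000516), and it had then reached 37.3% ± 13.2 (SD, n = 6) of its rise up to day 22. On the log2(RPKM + 1) scale it first passed 2-fold above its start on day 11 of 2012, by 1.81 (SE 0.22, limma adjusted p = 2.59e-13). In the other seasons this was on day 8, by 1.03 in 2013 (SE 0.22, limma adjusted p = 1.26e-05) and by 1.47 in 2014 (SE 0.22, limma adjusted p = 1.14e-09).

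The number of these genes above their first time point (at least 2-fold and a limma adjusted p under 0.05) was counted day by day. The fold is that of RPKM + 1, which is smaller than that of RPKM for low genes, so the counts alone do not give an order. NAC60 went from 2.91 to 4.04 RPKM on day -20 of 2013 to 6.63 to 9.56 RPKM on day -13 and was not counted. Nor was NAC33, which went from 0.691 to 1.53 RPKM on day -28 of 2012 to 1.91 to 4.46 RPKM on day -18. In 2012 it was 2 of 6, NAC26 and NAC60, on day -18, when 2.69% of tested genes were higher. It was 5 of 6, all but NAC61, on day -9 (4.29% of tested genes) and on day 0 (5.77%), and 6 of 6 on day 11 (6.67%). In 2013 it was 1 of 6, NAC26, on day -13 (0.486%), 5 of 6 on day -6 (3.83%) and day 0 (4.98%), with NAC61 missing, and 6 of 6 on day 8 (5.84%). In 2014 it was 1 of 6, NAC13, on day -7 (1.58%), 5 of 6 on day 0 (3.42%), with NAC61 missing, and 5 of 6 on day 8 (5.14%), when NAC61 had joined and NAC26 had come back to 0.52 above its start.

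The order of the rise was read from a mid-rise day. It is the day, interpolated between time point means on the log2(RPKM + 1) scale, on which a gene first reached 50% of the way from its first time point to its highest mean up to day 22. Its spread is given as the SD over the 3 replicate numbers, each followed alone through the season. Same-numbered libraries of different days are not pairs, so this SD only shows how far the day moves when 2 libraries a time point are used in place of 6.

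In 2012 the order was NAC26, NAC60, NAC13, NAC11, NAC33, NAC61. NAC26 reached mid-rise on day -20.7 ± 0.38 (SD, n = 3 replicate numbers) and NAC60 on day -14.9 ± 0.39. NAC13 on day -9.00 ± 1.72, NAC11 on day -8.57 ± 1.82 and NAC33 on day -7.75 ± 1.45 were at most 1.25 days apart, less than this SD, and exchanged places under some alternative settings. NAC61 came after veraison, on day 5.94 ± 0.89. Interpolated sugar at these days was 0.42 g/100 ml for NAC26, 0.69 for NAC60, 1.24 for NAC13, 1.54 for NAC11, 2.12 for NAC33 and 11.6 for NAC61.

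In 2013 the order was NAC26, NAC60, NAC13, NAC33, NAC11, NAC61. The mid-rise days were -13.9 ± 1.35 (SD, n = 3) for NAC26, -11.8 ± 1.07 for NAC60, -9.62 ± 0.32 for NAC13, -7.20 ± 1.05 for NAC33 and -5.91 ± 1.04 for NAC11. NAC61 followed on day 8.84 ± 6.57, with replicate 1 alone at day -1.88 and the other two at days 10.2 and 8.70. Neighbours in this order up to NAC11 were 1.29 to 2.42 days apart, close to this SD. All 15 pairs kept their order under the 12 alternative settings, which mostly use the same libraries, but in replicate 3 alone NAC60, on day -13.0, came before NAC26, on day -12.1. Interpolated sugar was 0.53 g/100 ml for NAC26, 0.90 for NAC60, 1.54 for NAC13, 2.25 for NAC33, 2.70 for NAC11 and 15.7 for NAC61. With quantile normalization the mid-rise day of NAC61 was -0.07.

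In 2014 the order was different and less sharp. NAC33 on day -5.67 ± 2.35 (SD, n = 3), NAC13 on day -5.60 ± 2.43, NAC26 on day -3.95 ± 0.58 and NAC60 on day -3.92 ± 1.19 were at most 1.75 days apart and exchanged places under several alternative settings. NAC11 on day -0.17 ± 1.69 and NAC61 on day 2.23 ± 1.17 came last. In the 75% arm NAC33 and NAC13 reached mid-rise on days -8.99 and -8.47, ahead of the other four. In the 50% arm the days were -2.91 and -3.13, beside -3.15 for NAC26. Sugar at mid-rise was 1.15 g/100 ml for NAC33, 1.17 for NAC13, 1.72 for NAC26, 1.73 for NAC60, 2.99 for NAC11 and 5.45 for NAC61. The median mid-rise day of all genes called higher at onset was also later in 2014, at -0.53, than in 2012, at -4.20, and 2013, at -5.97.

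**Figure D2:**
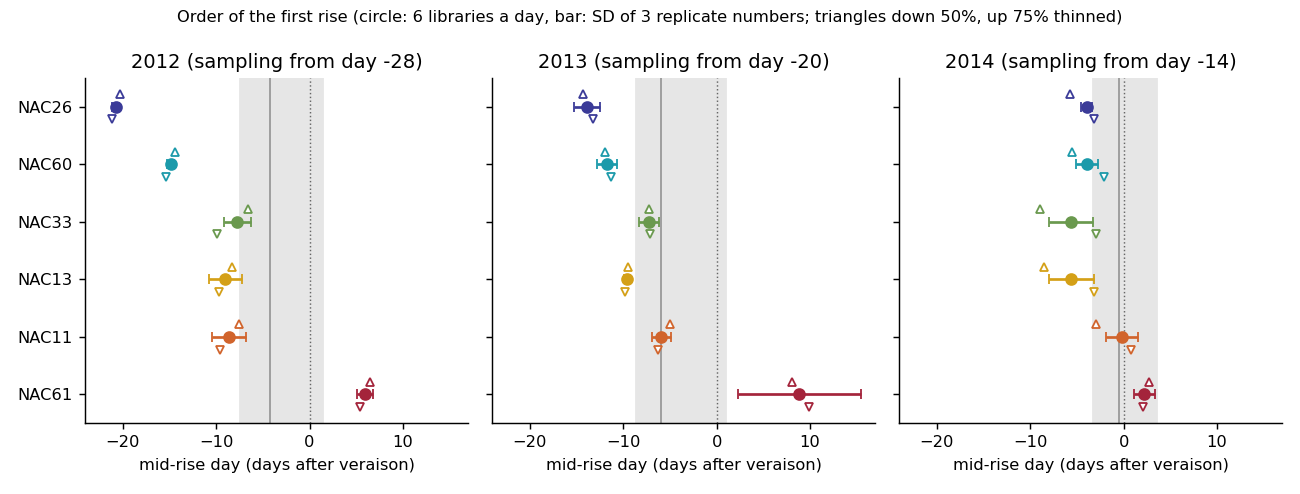
Mid-rise day of each NAC gene in 2012, 2013 and 2014: circles from the means of 6 libraries a day, bars the SD over 3 replicate numbers, downward triangles the 50% arm and upward triangles the 75% arm. The grey band and line give the middle 50% and the median of the genes that rose at onset. All genes but NAC61 lie before the band in 2012, and NAC26, NAC60 and NAC13 do in 2013. In 2014 NAC33, NAC13, NAC26 and NAC60 lie before it. NAC61 is last in each season.

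The seasons do not begin at the same point of the climb, which bears on the place of NAC26 and NAC60. The first libraries of 2014, on day -14, held 26.5 RPKM ± 5.32 (SD, n = 6) of NAC26 and 5.38 RPKM ± 1.24 of NAC60. Those of 2013, on day -20, held 21.1 RPKM ± 9.57 and 3.49 RPKM ± 0.46, and those of 2012, on day -28, held 9.30 RPKM ± 5.29 and 0.738 RPKM ± 0.227. When 2012 was begun on day -18, NAC60 came before NAC26. With 1 level for each gene in all seasons, midway between its lowest season start and its mean season top, NAC60 reached its level of 5.48 RPKM on day -13.4 of 2014 and NAC26 its level of 26.7 RPKM on day -12.3. By the same measure NAC13 followed on day -8.86, NAC33 on day -6.86, NAC11 on day -0.81 and NAC61 on day 2.59, and in 2013 NAC61 reached its level on day -1.39. These levels of NAC26 and NAC60 differ from their first means of 2014 by less than the SD, so the days of both in 2014 rest on the first libraries and do not place them. The measure was added after seeing the data.

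Within single libraries the share of the rise already reached was compared between genes. Both values of a pair come from the same library, but each is scaled by its gene's own rise. A shift of a whole library therefore need not cancel. On day -6 of 2013 NAC13 had reached 84.9% ± 6.57 (SD, n = 6) of its rise and NAC11 49.8% ± 5.73, with NAC13 ahead in 6 of 6 libraries. NAC33 stood at 60.6% ± 12.9 on that day and was behind NAC13 in 6 of 6. On day 0 of 2012 NAC11 had reached 74.7% ± 5.97 and NAC61 18.1% ± 13.1, with NAC11 ahead in 6 of 6. On day 0 of 2014 NAC26 and NAC33 stood at 100% ± 28.0 and 94.6% ± 26.5 and split the 6 libraries evenly. An exact two-sided sign-flip permutation test on 6 libraries cannot go below p = 0.03125, and after adjustment over the 90 tests (15 pairs on 6 days) that value became 0.0521, so 0 of 90 passed. In 54 of the 90, including the comparisons above of NAC13 with NAC11 and NAC33 and of NAC11 with NAC61, all 6 libraries had the same sign; on some days a gene is at its top by definition and its mean is 100%.

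**Figure D3:**
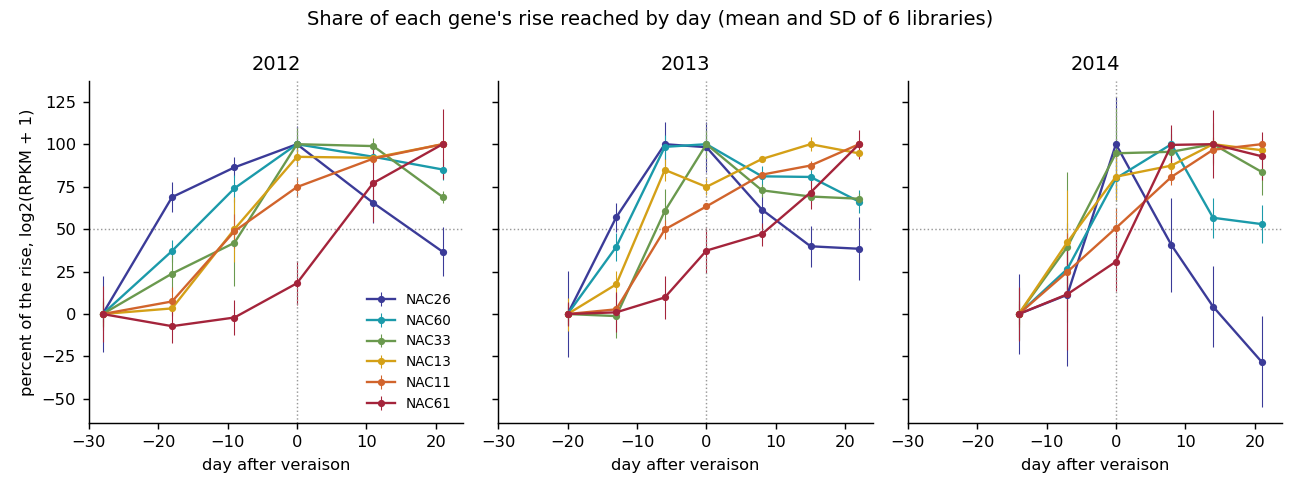
Percent of each NAC gene's rise reached by day after veraison in each season, on the log2(RPKM + 1) scale from its first time point (0%) to its highest mean up to day 22 (100%); points are means and bars SDs of 6 libraries. The curves of NAC26 and NAC60 lie to the left in 2012 and 2013, and that of NAC61 is the lowest on day 0 in all 3 seasons.

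The mid-rise days were set beside those of all genes called higher at the onset of ripening. That set is chosen on days 8 to 22 against days before 0, so it leaves out genes that climb in green berries and fall back, as NAC26 did, and NAC26 is not in it. In 2012 99.4% of 941 such genes had a later mid-rise day than NAC26, 95.2% later than NAC60, 82.3% later than NAC13, 80.8% later than NAC11 and 76.5% later than NAC33, but 12.0% later than NAC61. In 2013, among 945, the shares were 99.4% for NAC26, 98.1% for NAC60, 87.9% for NAC13, 58.7% for NAC33, 49.5% for NAC11 and 4.55% for NAC61. In 2014, among 944, they were 95.0% for NAC33, 94.6% for NAC13, 82.9% for NAC26, 82.6% for NAC60, 47.6% for NAC11 and 34.5% for NAC61. NAC11 was thus near the middle of the rising genes in 2013 and 2014 and earlier than most in 2012. These shares are a description and were not tested.

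From green berries to days 8 to 22, averaged over the seasons, 5 of the 6 genes rose at least 2-fold in limma, against 4.55% of tested genes that rose and 17.9% that fell. NAC11 rose from 2.69 RPKM ± 3.18 (SD, n = 48) to 29.96 RPKM ± 8.96, by 3.45 on the log2 scale (SE 0.06, limma adjusted p = 6.37e-101). NAC13 rose from 16.2 RPKM ± 22.6 to 82.6 RPKM ± 14.1, by 3.16 (SE 0.07, limma adjusted p = 1.56e-87). NAC61 rose by 1.67 (SE 0.08, limma adjusted p = 6.29e-45), NAC33 by 1.66 (SE 0.06, limma adjusted p = 1.60e-54) and NAC60 by 1.27 (SE 0.05, limma adjusted p = 4.22e-55). NAC26, whose climb and fall both lie inside this interval, stood at 43.2 RPKM ± 29.4 before and 34.9 RPKM ± 13.4 after, a difference of -0.05 (SE 0.08, limma adjusted p = 0.555). The median change of all genes was -0.24 as deposited, -0.06 with median ratio scaling and 0.09 with quantile normalization. Under these scalings the difference of NAC26 turned to 0.19 (limma adjusted p = 0.0352) and 0.23 (limma adjusted p = 0.0108), past the p threshold and under 2-fold, and the other 5 genes kept their calls.

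Toward harvest the genes parted. Between days 8 to 22 and each season's final 2 time points, 2 of 6 genes rose at least 2-fold (5.74% of tested genes rose and 8.22% fell). NAC61 rose from 12.6 RPKM ± 4.71 (SD, n = 48) to 92.5 RPKM ± 42.6 (n = 36), by 2.70 (SE 0.08, limma adjusted p = 1.17e-64), and NAC11 from 29.96 RPKM ± 8.96 to 100.1 RPKM ± 25.0, by 1.72 (SE 0.06, limma adjusted p = 4.58e-59). NAC26 was higher by 0.67 (SE 0.09, limma adjusted p = 8.07e-12) and NAC60 by 0.37 (SE 0.05, limma adjusted p = 7.75e-11), both under 2-fold. NAC33 was lower by 0.52 on the log2 scale (SE 0.07, limma adjusted p = 6.08e-12), going from 12.9 RPKM ± 2.92 to 8.84 RPKM ± 2.68. NAC13 stood at 82.6 RPKM ± 14.1 and 80.1 RPKM ± 8.39, a difference of -0.02 (SE 0.07, limma adjusted p = 0.835).

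The late return of NAC26 was seen in 2012 and 2014. Its change into the last 2 time points was 1.22 in 2012, -0.35 in 2013 and 1.14 in 2014, and these differed between seasons in a moderated F test (limma adjusted p = 6.64e-12), as did the late changes of 69.9% of all tested genes. The season of 2013 ended on day 43, before the days of the return in the other seasons. NAC60 changed by 0.77, -0.02 and 0.36 in the same order. Its step from day 63 to day 74 of 2012 was a rise of 1.35 (SE 0.13, limma adjusted p = 1.20e-16), from 12.8 RPKM ± 2.74 to 33.8 RPKM ± 4.43 (SD, n = 6).

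That interval of 2012 also held a rise of NAC61 and a fall of NAC33. NAC61 libraries held 26.4, 50.3 and 34.7 RPKM in the 50% arm and 23.0, 56.0 and 37.2 RPKM in the 75% arm on day 63, and 138, 123 and 106 against 184, 140 and 117 RPKM on day 74. The days did not overlap, and the rise was 1.84 (SE 0.22, limma adjusted p = 6.22e-13). NAC33 fell by 1.21 on the log2 scale (SE 0.18, limma adjusted p = 1.76e-09), from 14.2 RPKM ± 3.71 to 5.44 RPKM ± 1.00. In all, 2 of 6 genes, NAC60 and NAC61, rose at least 2-fold here (3.65% of tested genes) and 1 of 6 fell (3.61%). Mean sugar was 22.7 g/100 ml on day 63 and 27.2 on day 74.

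On day 80 of 2012 the libraries differed widely and in opposite directions for these genes. Replicate 2 of the 50% arm held 200.1 RPKM of NAC26 and replicate 2 of the 75% arm 133 RPKM, against 44.8 to 85.0 RPKM in the other four. The same pair held the least NAC61, 40.4 and 60.7 RPKM against 91.0 to 172 RPKM, the least NAC11, and the most NAC33, 15.0 and 12.5 RPKM against 4.18 to 7.22 RPKM. They also had the least sugar, 19.8 and 22.5 g/100 ml against 26.0 to 29.1. The part of their stage in these values was not tested. Without replicate 2 the late change of NAC26 over all seasons was 0.53 (limma adjusted p = 9.53e-07).

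Between seasons NAC61 differed most at a matched day. On day 42 of 2012 it was at 18.9 RPKM ± 5.15 (SD, n = 6), on day 43 of 2013 at 67.0 RPKM ± 14.2 and on day 42 of 2014 at 42.3 RPKM ± 12.4. The libraries of 2012 held 11.9 to 24.3 RPKM and those of 2013 47.7 to 87.3 RPKM, with no overlap. NAC61 was 1 of 6 genes at least 2-fold higher in 2013 than in 2012, by 1.79 (SE 0.22, limma adjusted p = 1.15e-11; 0.924% of tested genes), and 1 of 6 higher in 2014 than in 2012, by 1.09 (SE 0.22, limma adjusted p = 3.64e-05; 0.472%). Sugar on these days ran in the same order, 21.5 g/100 ml in 2012, 23.1 in 2014 and 25.5 in 2013. At the last 2 time points the sign was the other way: NAC61 was lower in 2013 than in 2012 by 1.03 on the log2 scale, the only 1 of 6 genes past 2-fold (3.36% of tested genes were lower). These time points are days 36 and 43 of 2013 and days 74 and 80 of 2012. No gene was called there with median ratio scaling, quantile normalization or without replicate 3.

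**Figure D4:**
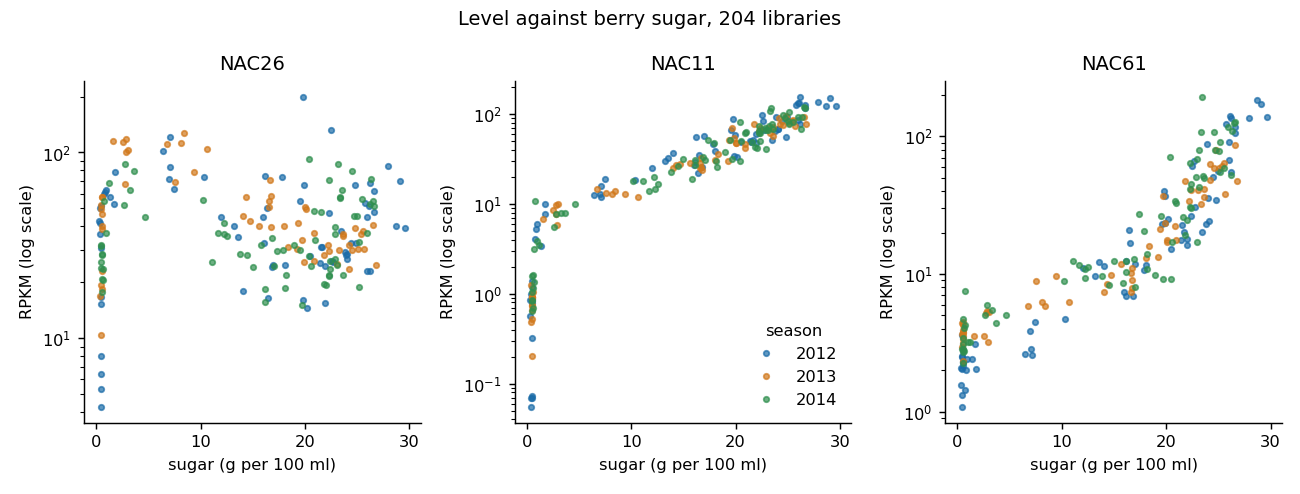
RPKM (log scale) of NAC26, NAC11 and NAC61 in every library against the sugar of the same sample in g per 100 ml, coloured by season. NAC11 and NAC61 climb with sugar in every season, NAC61 most steeply above about 20 g per 100 ml, while NAC26 does not: its 5 lowest libraries lie below 1 g per 100 ml, it is high between about 2 and 10 g per 100 ml, and its 2 highest libraries, 200.1 and 133 RPKM, had 19.8 and 22.5 g per 100 ml.

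Onset changes differed between seasons for 5 of the 6 genes by the F test, all but NAC26, which is near the 75.8% of all tested genes that did. NAC13 changed by 4.07 in 2012, 2.56 in 2013 and 2.84 in 2014, and NAC60 by 1.98, 0.73 and 1.12. The green berries of these seasons were sampled from different days. All 72 libraries of 2014, 11 of 2013 and none of 2012 carry RPKM values of a second form, in which 20 or more of 9114 steadily expressed genes are listed under 0.5 RPKM. Season and form cannot be told apart between 2012 and 2014. The same holds between 2012 and the end of 2013, where all 6 libraries of day 43 and 3 of 6 of day 36 are of the second form, so it touches the NAC61 values of days 42 and 43 and of the last 2 time points. In the 75% arm on days -20 and -6 of 2013, where 1 library of 3 is of the second form, that library held 10.4 RPKM of NAC26 against 18.3 and 22.9 on day -20 and 100.4 RPKM against 67.7 and 115 on day -6.

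None of the 6 genes passed the test of thinning intensity averaged over the seasons. Between 75% and 50% thinning the log2 differences ran from -0.09 (SE 0.05) for NAC26 to 0.15 (SE 0.05) for NAC61, with limma adjusted p from 0.114 to 0.866. Of all tested genes 0.809% passed this test. On day 36 of 2013 all 3 libraries of the 75% arm and none of the 50% arm are of the second form, so form and thinning cannot be told apart there. On that day 695 tested genes were lower at 75% thinning and 0 higher (limma adjusted p under 0.05, any fold). The differences between seasons in the thinning effect did not pass either (limma adjusted p = 0.9998 for each gene).

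At single time points, members were called on 1 day of the 34. On day -7 of 2014 3 of 6 genes, NAC13, NAC11 and NAC33, were at least 2-fold higher in the 75% arm, against 0.847% of tested genes. NAC13 held 11.3, 11.7 and 8.24 RPKM in the 50% arm and 71.8, 13.9 and 41.5 RPKM in the 75% arm, a difference of 1.67 (SE 0.26, limma adjusted p = 1.17e-06). NAC11 held 1.62, 1.16 and 1.35 RPKM against 10.7, 3.13 and 3.82 RPKM, a difference of 1.38 (SE 0.22, limma adjusted p = 2.83e-06). NAC33 held 3.76, 3.15 and 2.49 RPKM against 14.1, 6.07 and 9.39 RPKM, a difference of 1.33 (SE 0.25, limma adjusted p = 0.000101). The arms did not overlap for any of the 3, and replicate 1 of the 75% arm was the highest library of each.

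NAC26, NAC60 and NAC61 were not called on that day, with differences of 0.51, 0.28 and 0.53 and limma adjusted p of 0.596, 0.644 and 0.544. Sugar was 0.60, 0.56 and 0.67 g/100 ml in the 50% arm and 0.75, 0.68 and 0.98 in the 75% arm, also without overlap. The part of a small difference in stage was not tested. By day 0 the differences of NAC13, NAC11 and NAC33 were 0.58, 0.29 and 0.50 and did not pass (limma adjusted p = 0.139, 0.464 and 0.213). Without replicate 1 the number of genes called on day -7 was 0, and without replicate 3 it was 2.

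The arms also failed to overlap elsewhere, without a call. By a count added after seeing the data, over the 6 genes and 34 time points the arms did not overlap for 25 pairs of gene and time point. These include the called pairs of day -7 of 2014 (NAC13, NAC11 and NAC33), and their share is near the 11.0% of such pairs among all tested genes. In 2014 alone there were 16. No share of all genes was counted for that season, so the 16 cannot be read as a trait of these genes. Many of the 20770 tested genes differed between the arms on some days of 2014 (limma adjusted p under 0.05, any fold). At 75% thinning 265 were higher and 1870 lower on day 0, 1003 and 80 on day 28, and 139 and 215 on day 35. On day 0 of 2014 NAC60 held 13.9 to 16.6 RPKM in the 50% arm and 19.4 to 22.3 RPKM in the 75% arm (limma adjusted p = 0.129). On day 28 NAC61 held 9.80 to 20.5 RPKM against 26.2 to 27.5 RPKM (limma adjusted p = 0.118), and NAC60 and NAC33 were also higher in every 75% library. On day 35 NAC11 held 40.3 to 49.5 RPKM against 61.0 to 63.2 RPKM (limma adjusted p = 0.298), and NAC60 and NAC61 were again higher in every 75% library. Other pairs went the opposite way, such as NAC26 on days 21 and 49 of 2014.

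**Figure D5:**
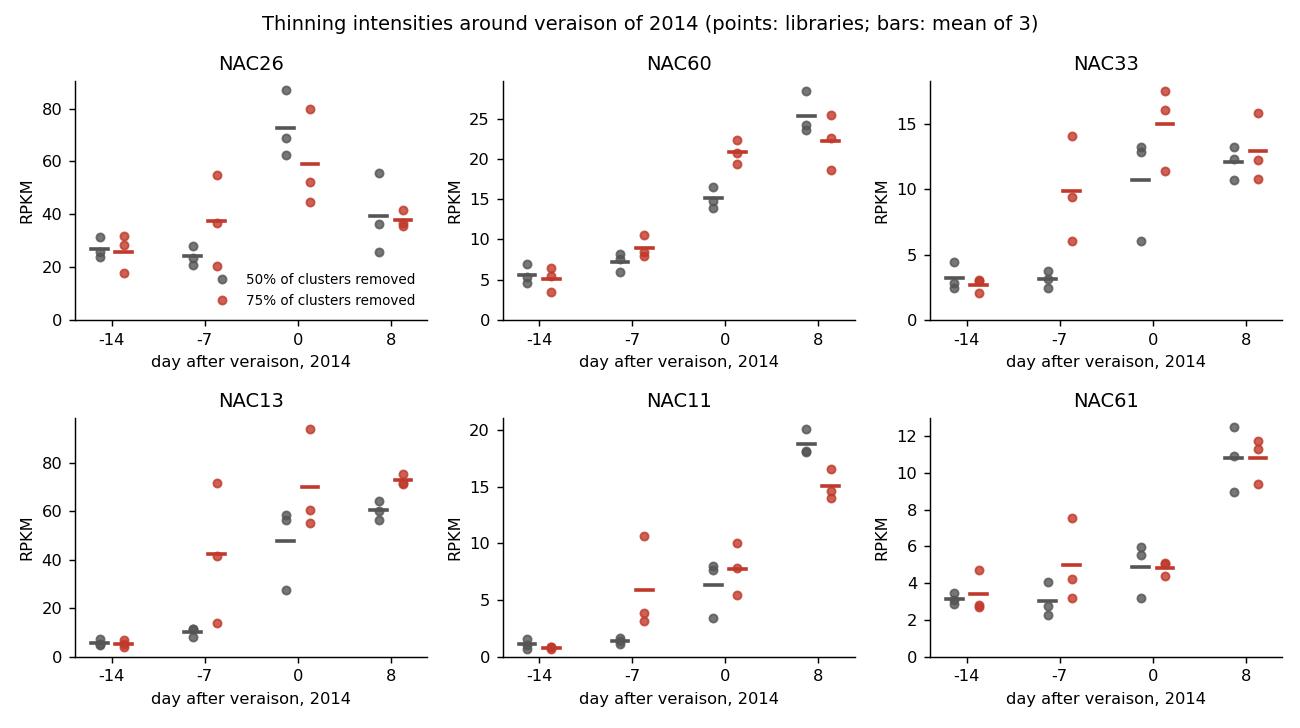
RPKM of each NAC gene in every library of days -14, -7, 0 and 8 of 2014, with 50% thinned berries in grey and 75% thinned berries in red; bars are means of 3 libraries. On day -7 the red points of NAC33, NAC13 and NAC11 lie above all grey points. On day 8 the arms overlap in NAC26, NAC60, NAC33 and NAC61; NAC13 is higher and NAC11 lower in the 75% libraries, by differences that did not pass the test.

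The courses of the genes were compared with each other over the 68 group means, which share season and stage, so the correlations are a description. NAC11 and NAC61 had Pearson r = 0.895, NAC13 and NAC11 0.879, NAC33 and NAC13 0.829, NAC60 and NAC13 0.818, and NAC26 and NAC60 0.648. NAC26 was least like the rest, with r from 0.086 to 0.430 to the other four. Deviations of single libraries from their group mean also ran together near veraison. Over the 36 libraries of days -9 to 0 the deviations of NAC33 and NAC13 had r = 0.898, those of NAC13 and NAC11 0.727, and those of NAC26 and NAC61 -0.183. On day -9 of 2012, for example, replicate 3 of the 50% arm was highest in NAC33 (11.5 RPKM), NAC13 (32.4 RPKM) and NAC11 (9.86 RPKM), and replicate 1 of that arm was among the 2 lowest in NAC33 and NAC13 (2.65 and 5.27 RPKM). Over the libraries of all time points the deviations of NAC26 and NAC61 had r = -0.382.

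Among the other 20764 tested IDs, those with r of at least 0.9 over the 68 group means numbered 973 for NAC61, 695 for NAC11, 157 for NAC13, 36 for NAC33, 4 for NAC60 and 0 for NAC26. The highest r of any gene to NAC26 was 0.786. By the median of the 6 correlations the nearest IDs were VIT_09s0002g06420, with 0.861, and VIT_14s0060g01980, with 0.856. Their r to NAC13 was 0.962 and 0.961, and their r to NAC26 was 0.373 and 0.399.

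NAC61 and NAC60 have IDs 30 apart on the same numbered scaffold, with 2 IDs between them. Of these, VIT_08s0007g07650 was listed at 0 in all libraries, and VIT_08s0007g07660 had a mean of 114 RPKM over all libraries and an onset change of -0.28. Although close in number, NAC60 and NAC61 differed in mid-rise day by 20.8 days in 2012, 20.6 days in 2013 and 6.15 days in 2014. Among the 40 tested IDs numbered within 50 of any of the 6 genes, other than these genes themselves, 0 rose and 7 fell at least 2-fold at onset, beside 4.55% and 17.9% of all tested genes.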

How the data were processed

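The deposited table holds RPKM values, computed by the authors from non-directional libraries with TopHat2 2.0.6 and Cufflinks 2.0.2 per the submitters' processing notes; parameters, the build and the annotation were not given in the sources used here. Depth is unknown, as counts were not analysed; RPKM summed to 817623 to 1105136 per library. Without strand, antisense reads cannot be separated, and the handling of reads shared by similar genes was not stated. Season and replicate came from sample titles, since a year tag differs from them in 134 libraries. The members, lists and tests were chosen with earlier results of these data known. Named genes were the 6 members, the 2 IDs most like them and the IDs between NAC61 and NAC60. No ID matched the reference gene table (0 of 29971), so pathway lists and markers gave no value and no sequence was printed.

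The tests ran on log2(RPKM + 1), using limma 3.58.1 under R 4.3.3 (68 group means, trended prior variance), adjusted by Benjamini-Hochberg over 20770 genes; fold changes on this scale understate those of low genes. A call needs an adjusted p under 0.05 and at least 2-fold; thinning and the F tests need the p alone. Onset compares days 8 to 22 with days before 0, and late ripening the last 2 time points with days 8 to 22. Mid-rise days and permutation tests used Python 3.11.15, numpy 2.4.6, pandas 2.3.3 and scipy 1.17.1. Fits were tested on simulated data. Alternatives were the pseudocount 0.1, no filter, median ratio scaling, quantile normalization, form as a covariate, a replicate block, single arms, other starts and ends of the rise, and leaving out each replicate.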

Additional observations from a re-analysis of the deposited data

Results flagged for a closer look

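The change of these genes differed between the 3 seasons in 10 moderated F tests (limma, adjusted over all genes), a test that 75.8% of all genes passed at onset and 69.9% in late ripening. At onset the adjusted p was 6.98e-18 for NAC60, with log2 changes of 1.98, 0.73 and 1.12 in 2012, 2013 and 2014. It was 6.32e-16 for NAC13, with 4.07, 2.56 and 2.84. It was 0.00037 for NAC61, with 2.15, 1.51 and 1.35, 0.00379 for NAC33, with 1.94, 1.68 and 1.37, and 0.0065 for NAC11, with 3.64, 3.52 and 3.18. In late ripening the adjusted p was 6.64e-12 for NAC26, with changes of 1.22, -0.35 and 1.14. It was 1.1e-07 for NAC11, with 2.00, 1.19 and 1.96, and 7.51e-07 for NAC61, with 3.01, 2.01 and 3.07. It was 2.96e-07 for NAC60, with 0.77, -0.02 and 0.36, and 0.00614 for NAC33, with -0.86, -0.34 and -0.36. Seasons began and ended on different days, and the part of this in the differences was not tested.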

How the results depend on the processing

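The 5 genes called at onset, the 2 called in late ripening and the 0 called for thinning had the same counts under every alternative run, the replicate block included. Deviations averaged over the days of a season did not run together between same-numbered replicates in every season (correlations from -0.036 to 0.407). The numbers were not taken as pairs, but this check cannot show pairing of the arms within a day. On day 63 of 2012 replicates 1 to 3 held 47.1, 32.6 and 67.1 RPKM of NAC26 at 50% and 54.7, 32.7 and 66.7 at 75% thinning. On day 0 they held 83.1, 121 and 71.8 against 101, 74.0 and 63.3 RPKM. The thinning tests and the SDs of 6 libraries take no account of such pairing. With the replicate block 5 genes rose at onset. That fit sets the seasons at different replicate numbers, so its differences between seasons at harvest are not given. The number of genes that differed between seasons at harvest was 1 in the main fit. It was 0 with median ratio scaling and quantile normalization, 2 with pseudocount 0.1, and 0 to 2 without single replicates. The number of genes whose onset change differed between seasons was 3 to 5 without single replicates, and the number higher at 75% thinning on day -7 of 2014 was 0 to 3. Of the 6 places in the order of 2012, 3 were kept on the linear RPKM scale and 3 with the 50% arm alone. Of those of 2014, 2 were kept with pseudocount 0.1, 1 on the linear scale, 2 with the same level in every season, and 2 to 6 without single replicates. In 2013 all 15 pairs kept their order. In 2012 NAC13, NAC11 and NAC33 exchanged places, as did NAC26 and NAC60 with a start on day -18. In 2014 NAC33, NAC13, NAC26 and NAC60 exchanged places, and NAC11 and NAC61 did on the linear scale. Among single values, 56 moved, all of them mid-rise days that moved by more than their SD. The 334 that did not move include the log2 changes in limma, so the share moved among mid-rise days alone is larger. Read depth is unknown, so no floor could be set for the lowest values of NAC11.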
